A study of Mus musculus with 4 samples.

Results

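The genes described here build the collagen-rich stroma of the mammary gland, or mark the fibroblasts that make it. They were listed by name, as 40 genes for fibrillar and associated collagens, proteoglycans, elastic fibre proteins, adhesive glycoproteins, cross-linking enzymes and fibroblast surface proteins. Of these, 39 were found among the 18952 genes that the array's 41174 probes could be matched to, and Col12a1 was not matched. Each gene is represented by its brightest probe over the 4 arrays, out of 62 probes in all. All 39 passed the filter on dim probes, and 37 were well above background on every array. Tnc and Fbln5 passed through the knockout arrays and were well above background on 1 of the 2 WT arrays.

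The arrays measured RNA of mammary glands from 13-week-old female mice, before tumours. One group is labelled STM KO (knockout 1 and knockout 2), for loss of stathmin, a protein that binds tubulin and destabilises microtubules. The other is labelled WT (WT 1 and WT 2), which here means wild type for stathmin alone, since both groups carry the Δ16HER2 transgene, a splice form of the human receptor HER2 that drives mammary tumours. The promoter of the transgene is not given in the sources used here, and nothing says whether each sample came from a separate animal, so every p-value measures the spread between these samples only. The question here is whether the stroma of the transgenic gland reads differently without stathmin. The number of arrays, 2 a group, limits how precise any value can be.

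Fibrillar collagens are made by fibroblasts as procollagen, folded in the secretory pathway into a triple helix, trimmed outside the cell and assembled into fibrils that lysyl oxidases cross-link. Small leucine-rich proteoglycans coat these fibrils and set their spacing, and fibronectin and fibrillin networks serve as templates for further matrix. In the mammary gland this matrix surrounds the ducts, and its density and stiffness are known to affect how epithelial cells grow and branch.

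The share of spots well above background was 54.7% to 66.2% on the 4 arrays, and no spot was saturated. The targeted gene did not settle the labels. The brighter of its probes (Stmn1) was well above background on all 4 arrays, with signals of 6865 and 1621 on the knockout arrays and 9222 and 1740 on the WT arrays. Its dimmer probe had signals of 5.57 and 4.84 on the knockout arrays and 87.6 and 13.8 on the WT arrays. It was lower on both knockout arrays, but well above background on neither of them and on 1 of the 2 WT arrays, so it was not tested. Where either probe lies relative to the deleted part is not given in the sources used here, so the arrays are called by their labels. The samples are labelled as epithelial, yet markers of the whole gland were present: 8 of 8 skeletal muscle markers, 7 of 8 adipocyte markers and 8 of 8 luminal epithelial markers passed the filter on dim probes. The remaining adipocyte marker, Cfd, had no matched probe with a value on every array. Knockout 2 also stood apart in lymphocyte genes. The mean level of 5 B cell markers, relative to their mean over the 4 arrays on the log2 scale, was -1.79 on knockout 1 and 3.74 on knockout 2, against -0.93 on WT 1 and -1.02 on WT 2. In RNA of a whole tissue, fewer cells of a type and less RNA per cell cannot be told apart.

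Most stromal matrix genes read somewhat lower on the knockout arrays, and none passed the test. Levels are log2 signals relative to the array's 75th percentile, and differences are knockout minus WT on that scale. Of 39 genes, 30 had a difference below 0 (76.9%), against 50.8% of all 13205 tested genes, and the median was -0.21, against -0.0065 for all genes. The 7 lowest differences were those of fibronectin (Fn1), collagen III (Col3a1), the first chain of collagen I (Col1a1), decorin (Dcn), versican (Vcan), thrombospondin 2 (Thbs2) and the other collagen I chain (Col1a2), and the groups were separate for all of these but Thbs2. Collagen VI, Sparc and Pcolce had differences above 0. For 11 genes both knockout arrays lay below both WT arrays (28.2%), against 17.8% of all tested genes, and for 3 they lay above (7.69%, against 17.7%). With limma's p left unadjusted and a threshold of 0.05, 2 genes were lower and 0 higher, against 2.4% and 1.14% of all genes. Limma gave 0 genes with an adjusted p under 0.05, among these 39 and among all genes (0%), and the smallest adjusted p here was 0.935.

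**Figure D1:**
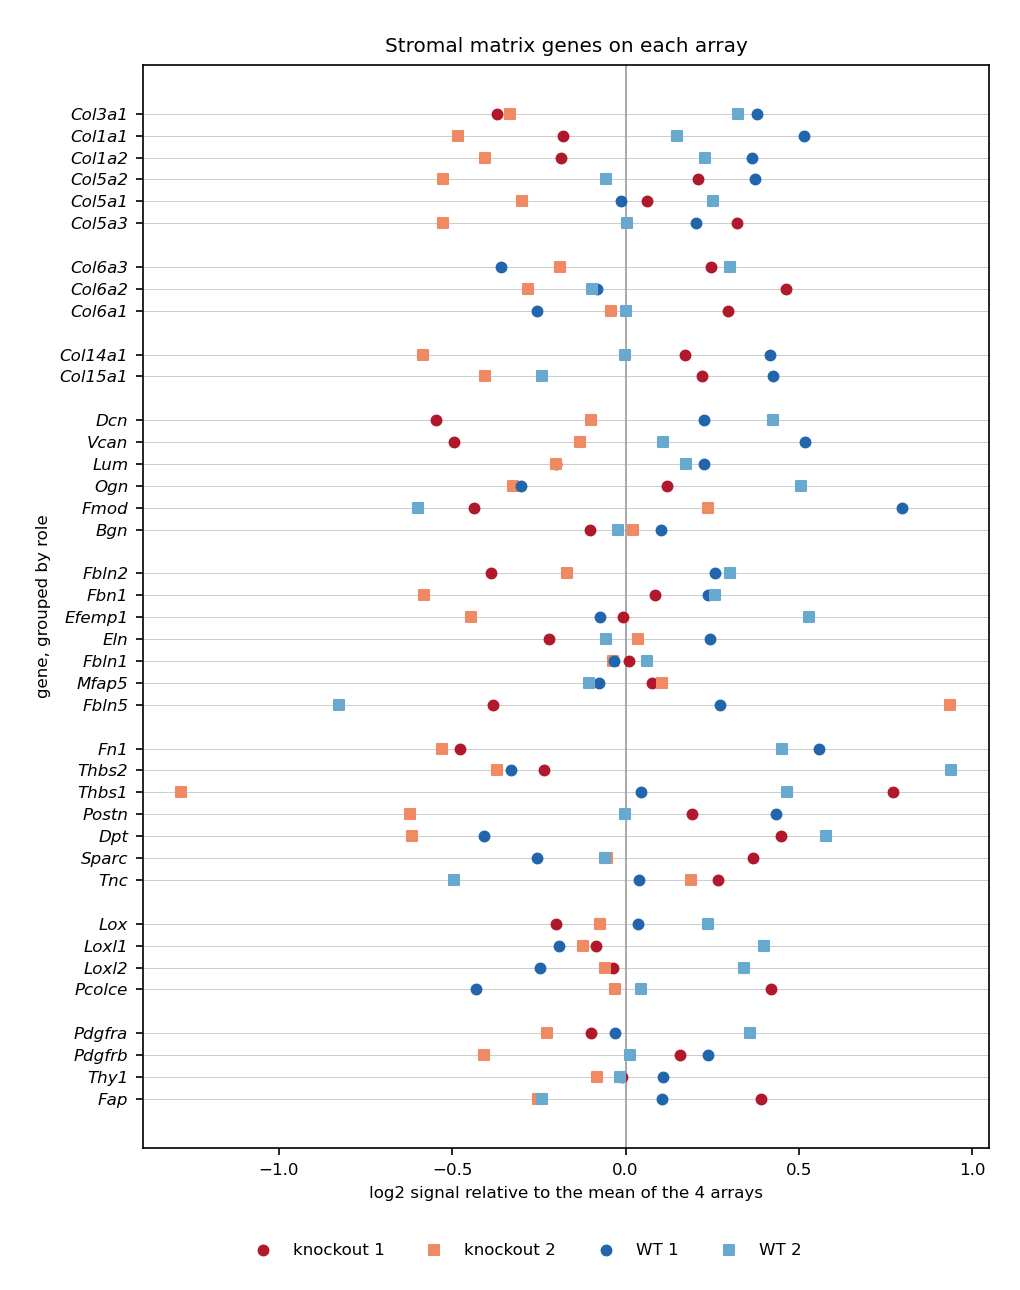
The log2 signal of each of the 39 genes on each array, relative to the gene's mean over the 4 arrays, with knockout arrays in red and orange and WT arrays in blue, grouped by role. The groups are separate for 11 genes with knockout lower, such as Col3a1 and Fn1, and for 3 with knockout higher, Sparc, Tnc and Mfap5.

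The scaling and single arrays bear on these counts. Each array was scaled to its own 75th percentile, and scaling to the median instead moved the median of all genes to 0.17 and that of the stromal matrix genes to -0.033. Then 25 of 39 genes had a difference below 0 (64.1%, against 31.6% of all genes). This change of scaling shifts every gene by the same amount, so it leaves the order of the genes as it was. Directions given below are therefore relative to the bulk of genes on the array. The lower median and the share of genes with separate groups also rested on knockout 2. Even so, Col3a1, Dcn, Vcan, Fbln2 and Lox, all with separate groups, were lowest on knockout 1. Without knockout 2, the median was -0.057 (-0.012 for all genes), and 13 genes lay below both WT arrays (33.3%, against 37.6% of all genes). Without knockout 1, the median was -0.42 (0.036 for all genes), and 27 genes lay below both WT arrays (69.2%, against 30.5%). Knockout 2 is also the array that is high in lymphocyte genes. The summed scaled signal of the B cell markers, of which 5 of 7 were tested, was 0.574 and 24.5 on the knockout arrays, against 0.764 and 0.607 on the WT arrays. That of the luminal markers, 8 of 8 tested, was lowest on knockout 2, at 119.4 and 76.4 on the knockout arrays, against 100 and 136.5 on the WT arrays. The part of these cells in the result was not tested.

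The fibrillar collagens form the load-bearing fibrils of the stroma. All 6 had a difference below 0 (100%, against 50.8% of all tested genes), with a median of -0.45. For 3 of them the groups did not overlap (50%, against 17.8% of all tested genes with knockout lower). Collagen III, found in thin, pliable fibrils, is a trimer of the product of Col3a1. Col3a1 (NM_009930, chromosome 1) read 4.68 and 4.72 on the knockout arrays, against 5.43 and 5.38 on the WT arrays. Both knockout arrays were low and both pairs were close, so that the difference was -0.70 ± 0.24 (SE, n = 2 arrays a group, limma unadjusted p = 0.0287, adjusted p = 0.935), a level 1.63-fold lower in knockout. It lay between -0.73 and -0.68 with any 1 array left out.

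Collagen I, the most abundant collagen of connective tissue, is a trimer of chains from Col1a1 and Col1a2. Col1a1 (NM_007742, chromosome 11) read 4.99 and 4.68 on the knockout arrays, against 5.68 and 5.31 on the WT arrays, a difference of -0.66 ± 0.28. Col1a2 (NM_007743, chromosome 6) read 6.32 and 6.10 on the knockout arrays, against 6.87 and 6.73 on the WT arrays, a difference of -0.59 ± 0.25. For both chains the groups were separate and the 4 arrays stood in the same order, knockout 2 lowest and WT 1 highest. The unadjusted p was 0.0598 for Col1a1 and 0.0602 for Col1a2, so neither passed even without adjustment. Collagen V, a minor collagen that sets fibril diameter, overlapped between the groups, with differences of -0.24 for Col5a1, -0.32 for Col5a2 and -0.21 for Col5a3. Without knockout 2 the differences of Col5a2 and Col5a3 were above 0, at 0.05 and 0.22.

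RefSeq promoters of assembly GRCm38.p6 were at hand for 24 of the 40 genes. Those of Col1a2 and Col3a1 are shown as examples of fibrillar collagens with separate groups, and Col1a1 and Fn1 have no entry. Each is the 250 bases before the annotated start, on the gene's strand, from chr6:4505368-4505617 (plus strand) for Col1a2 and chr1:45311288-45311537 (plus strand) for Col3a1. Capitals mark matches on either strand. The motifs searched were the TATA box as TATAAA, the CCAAT box, the GC box bound by Sp1 as GGGCGG, the AP-1 site as TGANTCA and the SMAD half-site as CAGAC.
Col1a2: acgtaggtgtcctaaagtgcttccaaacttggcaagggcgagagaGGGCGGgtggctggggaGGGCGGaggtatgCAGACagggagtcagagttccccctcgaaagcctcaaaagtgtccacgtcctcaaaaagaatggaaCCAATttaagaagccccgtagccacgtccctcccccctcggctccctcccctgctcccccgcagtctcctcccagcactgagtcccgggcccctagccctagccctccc
Col3a1: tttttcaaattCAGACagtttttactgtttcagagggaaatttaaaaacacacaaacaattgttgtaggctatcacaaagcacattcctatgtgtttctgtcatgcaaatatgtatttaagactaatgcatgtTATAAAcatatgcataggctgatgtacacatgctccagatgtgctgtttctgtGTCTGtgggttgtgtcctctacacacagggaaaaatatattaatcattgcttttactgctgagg
The pair had CAGAC in common, both lacked TGANTCA, and they differed in the rest. The Col1a2 stretch had GGGCGG at 2 places and 1 CCAAT. The Col3a1 stretch had neither but held TATAAA, at positions -117 to -112 from the annotated start. Over the 24 promoters GGGCGG was in 50% of them, against 32.9% of all 27025 promoters, CCAAT in 20.8%, against 34.5%, and TATAAA in 16.7%, against 13%. CAGAC was in 41.7%, against 42.1%, and TGANTCA in 8.33%, against 6.87%. A match describes the letters only, and no binding was measured.

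Collagen VI, which forms beaded filaments around cells and links fibrils to the basement membrane, did not share the direction of the fibrillar collagens. Its 3 chains had differences of 0.25 ± 0.27 for Col6a1, 0.18 ± 0.33 for Col6a2 and 0.058 ± 0.34 for Col6a3, all within the spread between arrays. Knockout 1 was highest of the 4 arrays for Col6a1 and Col6a2, and the groups overlapped for each chain. Averaged over its tested probes, Col6a3 was at -0.055. The fibril-associated collagen gene Col14a1 had -0.41 ± 0.36, and Col15a1, whose product lies near basement membranes, had -0.19 ± 0.37. The difference between collagen VI and the fibrillar collagens was not tested.

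**Figure D2:**
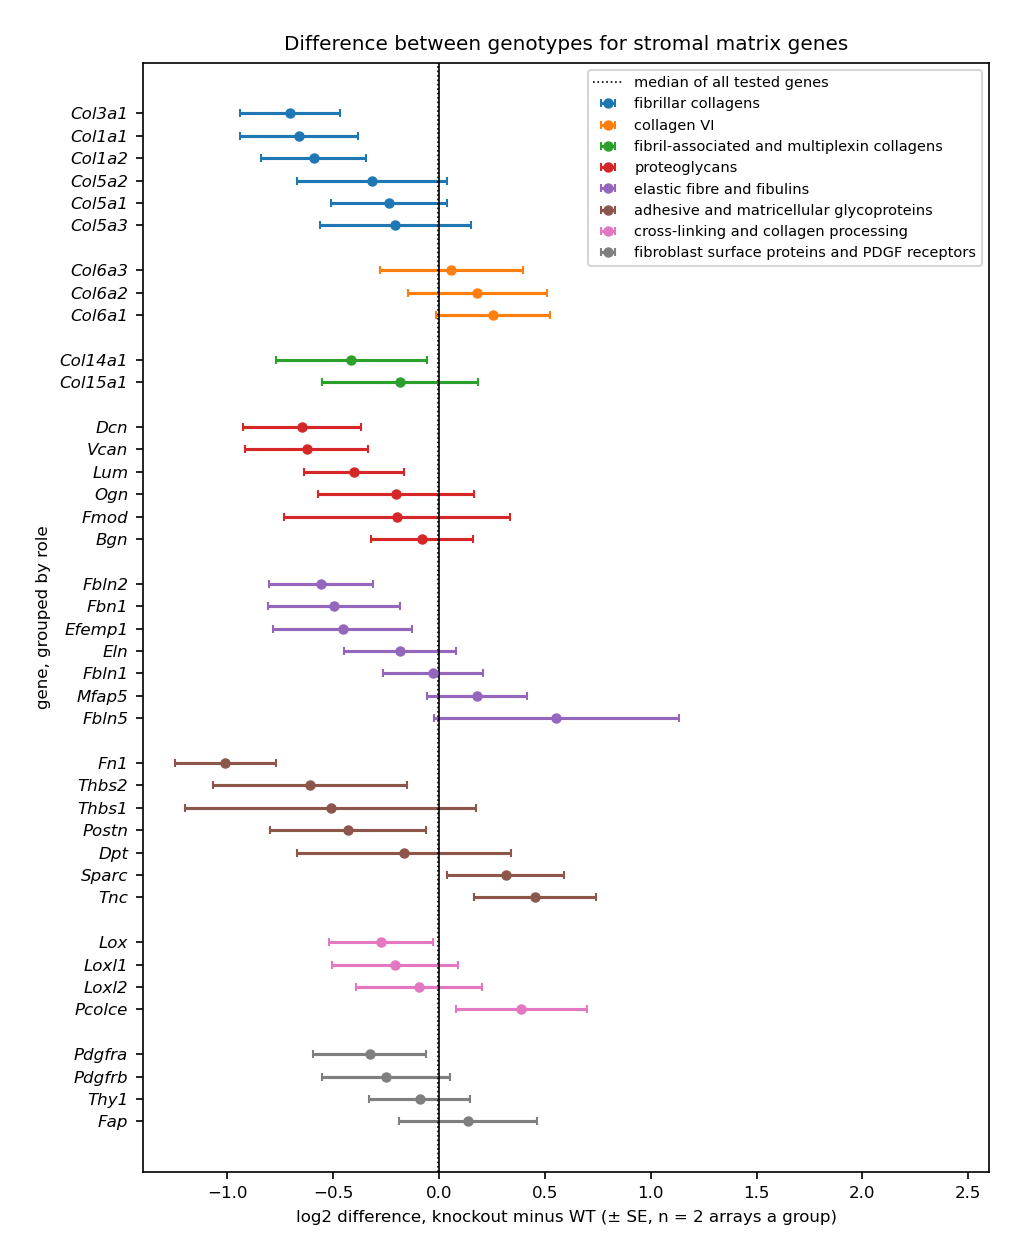
The log2 difference, knockout minus WT, of each of the 39 genes with its SE from limma (n = 2 arrays a group), coloured by role, and the median of all tested genes as a dotted line. All 6 fibrillar collagens and all 6 proteoglycans lie below 0, the 3 collagen VI chains lie above it, and Bgn turns above 0 under median scaling.

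All 6 proteoglycan genes had a difference below 0 (100%, against 50.8% of all tested genes, median -0.30), although Bgn, at -0.082, turned to 0.093 under median scaling. Decorin binds collagen I fibrils and limits their lateral fusion. Dcn (NM_007833, chromosome 10) read 6.14 and 6.59 on the knockout arrays, against 6.92 and 7.11 on the WT arrays, a difference of -0.65 ± 0.28 (unadjusted p = 0.0651). Here knockout 1, not knockout 2, was the lowest array. Lumican, a related fibril-binding proteoglycan, had the closest pairs: Lum read 5.10 on each knockout array, against 5.52 and 5.47 on the WT arrays, a difference of -0.40 ± 0.24. Versican is a large proteoglycan that binds hyaluronan. Vcan read -2.29 and -1.93 on the knockout arrays, against -1.28 and -1.69 on the WT arrays, a difference of -0.63 ± 0.29, again with no overlap. Its signals before scaling were 59.5 and 42.0 on the knockout arrays and 78.8 and 44.7 on the WT arrays. None of the other Vcan probes passed the filter on dim probes. The fibril-binding genes Ogn and Fmod had -0.21 ± 0.37 and -0.20 ± 0.53. Of the 6, Fmod differed most within a group, with WT 1 above WT 2 by 1.40.

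Elastic fibres consist of elastin laid on fibrillin microfibrils, with fibulins joining them. Of 7 genes, 5 were below 0 (71.4%, against 50.8% of all tested genes, median -0.19). Elastin itself showed no clear gap. Eln read -1.21 and -0.95 on the knockout arrays, against -0.75 and -1.05 on the WT arrays, and the groups overlapped. Fbn1, the gene for fibrillin 1, read 1.46 and 0.79 on the knockout arrays, against 1.61 and 1.63 on the WT arrays, a difference of -0.50 ± 0.31. The gap was mostly at knockout 2. The fibulin gene Fbln2 read 3.68 and 3.90 on the knockout arrays, against 4.33 and 4.37 on the WT arrays. Its difference of -0.56 ± 0.24 came with separate groups (unadjusted p = 0.0688). Efemp1, which encodes fibulin 3, had -0.46 ± 0.33 and Fbln1 had -0.028 ± 0.24. Mfap5, a microfibril component, had 0.18 ± 0.24 with separate groups. Fbln5, needed for elastin assembly, ranged from -4.55 to -3.23 on the knockout arrays and from -4.99 to -3.89 on the WT arrays, with WT 2 not well above background.

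Among adhesive and matricellular proteins, fibronectin had the widest gap of all 39 genes by brightest probe. Averaged over all tested probes it was at -0.63, and Col1a1 at -1.03. Fn1 (NM_010233, chromosome 1) read 0.50 and 0.45 on the knockout arrays, against 1.54 and 1.43 on the WT arrays. The difference was -1.01 ± 0.24 (unadjusted p = 0.00729, adjusted p = 0.935), a level 2.01-fold lower in knockout, and it lay between -1.06 and -0.96 with any 1 array left out, when Thbs1 (-1.54 without knockout 1) or Thbs2 (-1.24 without WT 1) could be wider. This probe is spotted 10 times on each array. Its median spot signal, before scaling, was 423 on knockout 1 and 227.3 on knockout 2, against 572.3 on WT 1 and 401.2 on WT 2, and single spots ran as low as 170.3 on WT 1. Postn encodes periostin, which fibroblasts secrete under TGF-beta. It read 4.68 and 3.87 on the knockout arrays, against 4.93 and 4.49 on the WT arrays, a difference of -0.43 ± 0.37 with overlap. The thrombospondin genes Thbs1 and Thbs2, whose products bind matrix and growth factors, had -0.51 ± 0.69 and -0.61 ± 0.46. Each rested on 1 array: Thbs1 read -0.20 on knockout 1 and -2.25 on knockout 2, and Thbs2 read 0.14 on WT 1 and 1.41 on WT 2. Without knockout 2 Thbs1 was at 0.51, and without WT 2 Thbs2 was at 0.026. Dpt, for the fibril-binding protein dermatopontin, had -0.17 ± 0.51.

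Sparc and Tnc had differences above 0. Sparc, a collagen-binding protein secreted with collagen I, read 6.50 and 6.08 on the knockout arrays, against 5.88 and 6.07 on the WT arrays, a difference of 0.31 ± 0.28. Knockout 2 and WT 2 were nearly equal, and the second Sparc probe gave -0.26. Tnc, for tenascin C, a glycoprotein of remodelling tissue, read -3.35 and -3.43 on the knockout arrays, against -3.58 and -4.12 on the WT arrays, a difference of 0.45 ± 0.29 (-0.066 after normexp background correction). Since WT 2 was not well above background and Tnc was tested only through its knockout arrays, its place among the 3 genes with knockout higher supports nothing.

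Lysyl oxidases cross-link collagen and elastin. Lox read -0.62 and -0.49 on the knockout arrays, against -0.38 and -0.18 on the WT arrays, a difference of -0.28 ± 0.25 with separate groups. Its relatives had -0.21 ± 0.30 for Loxl1 and -0.095 ± 0.30 for Loxl2, with WT 2 highest in each. Pcolce, whose product enhances cleavage of the procollagen C-propeptide, had 0.39 ± 0.31. Of the 4 fibroblast surface markers, 3 had a difference below 0. Pdgfra, the PDGF receptor that marks stromal fibroblasts, read 2.02 and 1.89 on the knockout arrays, against 2.09 and 2.48 on the WT arrays, a difference of -0.33 ± 0.27. Pdgfrb, shared by fibroblasts and pericytes, had -0.25 ± 0.30, Thy1, a surface glycoprotein of fibroblasts and T cells, had -0.093 ± 0.24, and Fap, a protease of activated fibroblasts, had 0.14 ± 0.33.

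**Figure D3:**
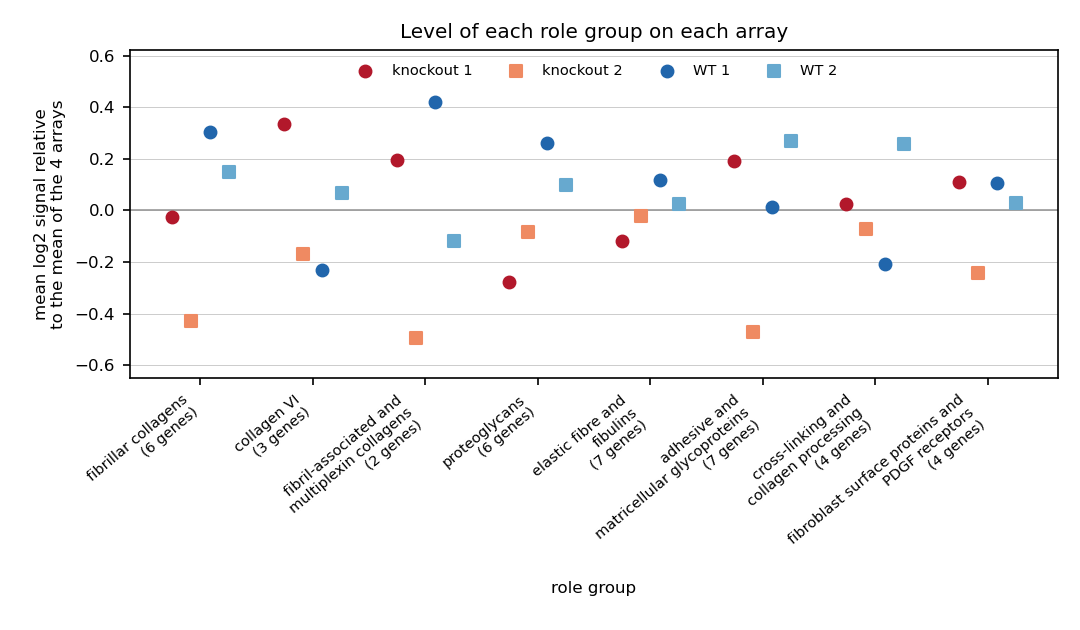
The mean log2 signal of each role group on each array, relative to the mean of the 4 arrays, with the number of genes tested in each. Fibrillar collagens, proteoglycans and elastic fibre genes have both knockout arrays below both WT arrays, while knockout 1 is highest of the 4 for collagen VI.

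The knockout arrays did not share 1 pattern. Fibrillar collagens averaged -0.024 on knockout 1 and -0.43 on knockout 2, against 0.30 on WT 1 and 0.15 on WT 2. Proteoglycans had the reverse order within the knockout pair, at -0.28 on knockout 1 and -0.083 on knockout 2, against 0.26 on WT 1 and 0.099 on WT 2. Adhesive and matricellular genes averaged 0.19 on knockout 1 and -0.47 on knockout 2, against 0.012 on WT 1 and 0.27 on WT 2. Across the 39 genes, the median absolute gap was 0.36 between both knockout arrays and 0.35 between both WT arrays. The medians of the 39 genes on single arrays had an SD of 0.118 within the groups.

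Other probes gave a second reading of 13 of these genes, on the same 4 arrays. For 10 of the 13, every tested probe had a difference below 0, and for Col6a3, Sparc and Thy1 the probes had both signs. The share of all genes with every probe below 0 was not counted, so the 10 are a description only. Over all genes with 2 or more tested probes, the median difference was -0.0034 for brightest probes and -0.061 for the others. Col1a1 had 3 probes, at -0.66, -1.01 ± 0.34 and -1.40 ± 0.44, each with separate groups. The dimmest of them read -1.20 and -0.24 on the knockout arrays, against 1.05 and 0.32 on the WT arrays. A second Thbs1 probe gave -1.32 ± 0.30 (unadjusted p = 0.00671) and a second Col5a1 probe gave -1.02 ± 0.39. The other Fn1 probes gave -0.33 and -0.55, and the second Col3a1 probe gave -0.49. The second Thy1 probe gave 0.50 ± 0.33. The dimmer probes of all genes stood apart from the brighter ones on knockout 1: over 4495 genes with 2 or more tested probes, the median level relative to the 4 arrays was 0.0062 on knockout 1 for brightest probes and -0.11 for the others. For these sets it was 0.0032 and 0.072 on knockout 2, against -0.009 and 0.062 on WT 1 and 0.017 and 0.014 on WT 2. Its part in the lower values of dim collagen probes was not tested.

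**Figure D4:**
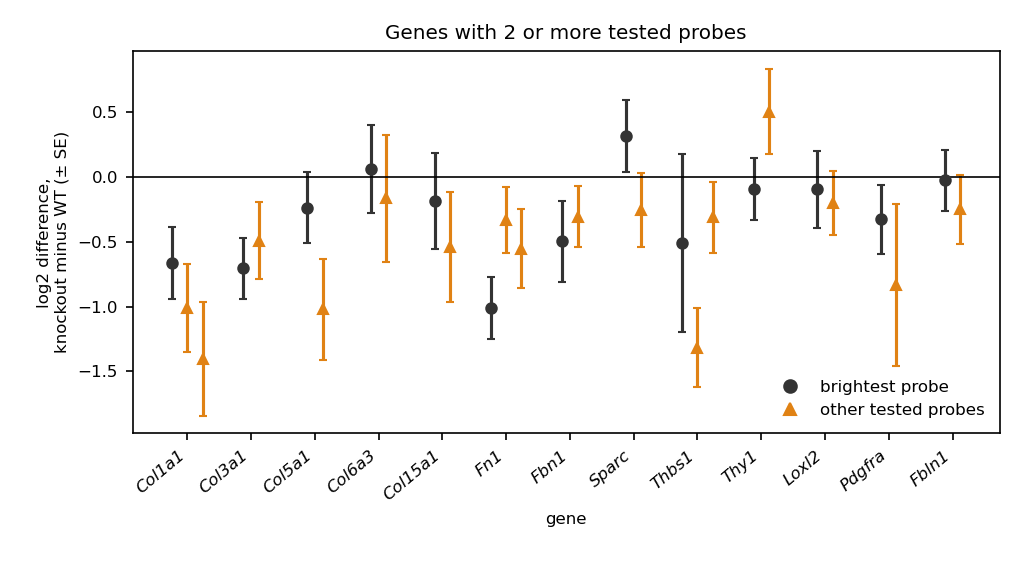
The log2 difference, knockout minus WT, with its SE (n = 2 arrays a group) for every tested probe of the 13 genes that have 2 or more, brightest probe first. All probes of 10 genes lie below 0, and those of Col6a3, Sparc and Thy1 lie on both sides.

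Genes that act on this matrix were read from 6 lists of 75 genes, of which 66 were tested. None had an adjusted p under 0.05 by limma. At an unadjusted p under 0.05, 3 were lower and 1 higher, and 18 had both knockout arrays below both WT arrays (27.3%), with 5 above (7.58%). Over all tested genes these shares were 2.4% lower and 1.14% higher by p, and 17.8% below and 17.7% above. In the list of TGF-beta ligands, latency proteins, receptors and SMADs, 5 of 13 tested genes were below 0 and the median was 0.09. The widest difference was that of the ligand gene Tgfb2 (NM_009367, chromosome 1). It read -1.28 and -1.50 on the knockout arrays, against 0.33 and -0.01 on the WT arrays, a difference of -1.55 ± 0.27 (unadjusted p = 0.0018, adjusted p = 0.935). Both pairs were close and the groups were far apart, and the difference lay between -1.72 and -1.38 with any 1 array left out. Among TGF-beta induced genes, 6 of 9 were below 0 (median -0.19). Ccn2, which encodes connective tissue growth factor, read 0.11 and 0.33 on the knockout arrays, against 1.50 and 0.93 on the WT arrays, a difference of -0.996 ± 0.30 (unadjusted p = 0.0195).

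Collagen and fibronectin receptors and uptake genes were below 0 for 6 of 9 (median -0.32), and 4 had separate groups with knockout lower (44.4%, against 17.8% of all genes). The collagen-binding integrin gene Itga11 read 1.95 and 2.06 on the knockout arrays, against 2.64 and 2.60 on the WT arrays, a difference of -0.62 ± 0.24 (unadjusted p = 0.0466). Fibroblast transcription factors and lineage genes were below 0 for 10 of 12 (83.3%, against 50.8% of all genes, median -0.36), 7 of them with separate groups (58.3%, against 17.8%). Among the 7, Tcf21 was well above background on 1 of the 2 WT arrays and was tested only through the knockout arrays. The gene with an unadjusted p under 0.05 in that list went the other way: Meox1, a homeobox gene, read -0.42 and -0.56 on the knockout arrays, against -1.12 and -1.52 on the WT arrays, a difference of 0.83 ± 0.27. The enzymes and chaperones that fold, modify and cut procollagen had a median of -0.08 over 19 genes, 11 of them below 0. The widest differences there were -0.79 ± 0.35 for Pcolce2, a relative of Pcolce, and -0.49 ± 0.53 for the procollagen N-proteinase gene Adamts3. The 4 PDGF ligand genes had a median of 0.03, with Pdgfb at 0.53 ± 0.40, -0.35 on its second probe, and Pdgfc at -0.17 ± 0.33. A second Pdgfc probe gave -0.37 ± 0.29, with separate groups and knockout lower. The brighter Pdgfb probe was well above background on both knockout arrays and on 1 of the 2 WT arrays, so it was tested only through the knockout arrays.

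Markers of other cells differed in both directions and by varying amounts. Macrophage markers had a median difference of -0.50 over 6 genes, 3 of them with separate groups and knockout lower (50%, against 17.8% of all tested genes). Endothelial markers had a median difference of -0.43 over 7 genes, skeletal muscle markers -0.39 over 8 and luminal epithelial markers -0.38 over 8. Adipocyte markers had -0.21 over 7 genes, while pericyte markers had 0.11 over 5. Mean levels relative to the 4 arrays were -0.095 and -0.21 on the knockout arrays and 0.13 and 0.17 on the WT arrays for endothelial markers. They were -0.32 and -0.19 on the knockout arrays and 0.34 and 0.18 on the WT arrays for skeletal muscle markers, and for luminal markers 0.14 and -0.60 on the knockout arrays and 0.29 and 0.16 on the WT arrays. All 4 tested mast cell markers had separate groups with knockout lower (100%, against 17.8% of all tested genes) and a median of -0.91. T cell markers had a median difference of 2.15 and B cell markers of 2.57, with knockout 2 the highest array for both lists. Of these, Cd2, Cd8a, Cd3e, Cd3g and the B cell marker Spib passed the filter on dim probes only through the knockout arrays. The B cell markers Ms4a1 and Cd79a passed it only through the WT arrays. These medians therefore describe the arrays and support nothing about genotype. T cell markers were at -1.06 on knockout 1 and 3.11 on knockout 2, against -1.13 on WT 1 and -0.92 on WT 2. The part of these cell types in the stromal matrix values was not tested.

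**Figure D5:**
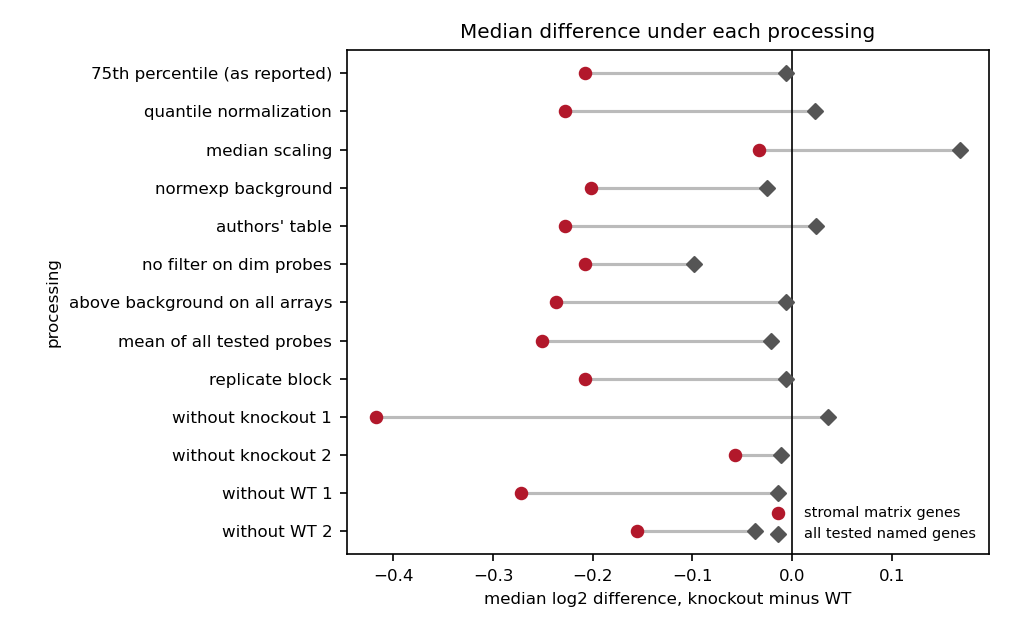
The median log2 difference, knockout minus WT, of the stromal matrix genes (red) and of all tested named genes (grey) under each processing and with each array left out. The stromal median lies below that of all genes in every case, with the smallest gap without knockout 2 and the widest without knockout 1.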

How the data were processed

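The authors deposited 1-colour (Cy3) spot intensity files from Agilent's Feature Extraction. The software is release 11.5.1.1 in the deposited headers, whereas the submitters' processing notes name 10.7.3.1. Per the file headers, its processed signal had background subtracted and spatial trends removed within each array. Their deposited table of log2 values matched quantile-normalized signals centred on each probe's median (r of at least 0.99997 on every array), and its column medians were 0.00626 and -0.00961 for knockout 1 and 2 and -0.018 and 0.0183 for WT 1 and 2.

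Replicate spots were averaged without control spots and outlier flags, put on the log2 scale and set against the array's 75th percentile. Accessions were matched to RefSeq genes of GRCm38.p6, which named 27816 probes. A probe was tested when well above background on both arrays of a group (24183 probes), with limma 3.58.1 in R 4.3.3 and Benjamini-Hochberg adjustment over all of them. The fit was tested on simulated data. Values in every array are given for genes with an unadjusted p under 0.05, for those with separate groups and a log2 difference of at least 0.5, and for 10 main structural genes. Of each pathway list, up to 3 genes with an unadjusted p under 0.05 are named, or the 2 widest. The genes and lists were chosen with earlier results of these data known. All 4 arrays were on 1 slide and in 1 scan, so position on the slide cannot be told apart from genotype. Normexp used median spot signals.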

Additional observations from a re-analysis of the deposited data

How the results depend on the processing

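The values were recomputed under 12 alternatives, all planned. With 1 array left out, the lone array of a group is assumed to vary like the other group. The count of stromal matrix genes with an adjusted p under 0.05 stayed at 0 in each. Over all genes it was 0 with the 75th percentile and 3 under median scaling. Under median scaling 0 genes were lower at an unadjusted p under 0.05, 6 had separate groups with knockout lower (15.4%, against 7.73% of all genes), the median was -0.033 and 2 pathway genes had an unadjusted p under 0.05. That last count was also 2 with normexp. Without a filter on dim probes 1 gene was lower at an unadjusted p under 0.05, as with the replicate block. The labels do not say whether arrays that share a number were paired. Across tested probes, knockout 1 minus knockout 2 correlated with WT 1 minus WT 2 at 0.0648. With 2 arrays a group, this value cannot decide the matter. Under the block 1 stromal matrix gene, in place of 2, and 3 pathway genes, in place of 4, had an unadjusted p under 0.05. The median and the counts below 0 and with an adjusted p under 0.05 did not change. Separate groups were not counted under the block.

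With 1 array left out, the count lower at an unadjusted p under 0.05 ran from 0 to 3, the count with separate groups from 13 to 27 with knockout lower and from 4 to 9 with knockout higher (30.5% to 37.6% and 31% to 37.5% of all genes), the median from -0.42 to -0.057, the count below 0 from 24 to 32 and the pathway count from 2 to 5. Higher counts of separate groups follow from comparing fewer arrays.

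With every array kept, 359 of 373 recomputed single-gene differences had the same sign and 14 reversed. Under median scaling these were Fbln1 (0.15), Bgn (0.0931), Dpt (0.0077), Loxl2 (0.0795), Thy1 (0.0823) and Pdgfc (0.0016), since that scaling adds the same amount to every difference. With normexp they were Fbln1 (0.13), Fbln5 (-0.13), Tnc (-0.0664), Loxl2 (0.10), Mfap5 (-0.0476) and Pdgfb (-0.11), and with the mean of all probes Col6a3 (-0.0547) and Thy1 (0.20). The cause of the normexp reversals was not tested, while the mean of probes takes in probes of opposite sign. With 1 array left out, 24 of 188 reversed. The ranges were -1.24 to 0.0259 for Thbs2, -0.27 to 0.39 for Col6a3, -0.0752 to 0.0194 for Fbln1, -0.19 to 0.46 for Fap, -1.54 to 0.51 for Thbs1 and -0.11 to 1.21 for Fbln5. They were -0.52 to 0.15 for Col15a1, -0.70 to 0.36 for Dpt, -0.61 to 0.20 for Ogn, -0.53 to 0.0317 for Pdgfrb, -0.90 to 0.50 for Fmod and -0.63 to 0.22 for Col5a3. They were -0.39 to 0.20 for Loxl2, -0.19 to 0.55 for Col6a2, -0.50 to 0.0878 for Loxl1, -0.68 to 0.05 for Col5a2, -0.53 to 0.18 for Pdgfc and -1.22 to 0.24 for Adamts3. Signal over background limits what the dimmest genes, Fbln5 and Tnc, can show.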
